A study of Homo sapiens with 6 samples.

Results

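The 26 integrin and 12 laminin subunit genes were examined in HepG2 cells, a human hepatocellular carcinoma line, after transfection with FTO siRNA or control siRNA. The genes were taken by symbol as the protein-coding ITGA, ITGB and LAMA, LAMB and LAMC genes of GENCODE 29, without regard to their values, which gave 38 of the 60483 gene identifiers counted. They comprise 18 integrin alpha, 8 integrin beta and 12 laminin genes, of which 37 are reported. RNA sequencing of total RNA was available from 3 libraries after FTO siRNA and 3 after control siRNA. Cells of both groups were the same line at the same range of passages and in the same medium with serum, and the labels do not say whether replicates were separate cultures or separate transfections, so that p-values measure only the spread between these samples. No source used here gives the siRNA sequences, the dose or the interval between transfection and harvest, and with 1 FTO siRNA treatment the transcripts that changed through FTO and through the siRNA itself cannot be told apart.

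Integrins are cell surface receptors made of 1 alpha and 1 beta subunit. The alpha subunit largely sets the ligand, such as fibronectin, collagen, laminin or a counter-receptor on another cell, and the beta subunit carries most of the link to talin, kindlin and the actin cytoskeleton. Laminins are secreted trimers of an alpha, a beta and a gamma chain that polymerise into basement membranes and bind integrins through the end of the alpha chain. Normal hepatocytes face a space with little basement membrane, and laminins and laminin-binding integrins are known to become more abundant in liver tumours. FTO, the protein targeted here, is a demethylase that removes methyl groups from adenosines in RNA.

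The libraries held between 16407912 and 18390953 counts after FTO siRNA and between 15713279 and 16739978 after control siRNA, so that 3 counts correspond to 0.153 to 0.190 CPM, the count scaled to the library's TMM-adjusted total. FTO itself was at 11.2, 14.5 and 5.21 CPM in the FTO siRNA libraries, against 40.8, 38.0 and 38.8 CPM in the control libraries. It averaged 10.3 ± 4.69 CPM after FTO siRNA and 39.2 ± 1.47 CPM after control siRNA (SD, n = 3 each), or 26.3% of the control level, and fell by 1.93 ± 0.32 on the log2 scale (SE; adjusted p = 0.00932 in edgeR's quasi-likelihood test, by Benjamini-Hochberg over all tested genes). FTO siRNA library 3 stood apart from FTO siRNA libraries 1 and 2. On the second principal component, which held 25.8% of the variance of log2 CPM, it lay at -52.6 against 40.1 and 22.7, with the control libraries between -10.5 and 7.36. Subunits whose values turn on that library are given below with and without it. Of 15 hepatocyte and HepG2 markers all were tested, 14 did not pass the test and CEBPA fell; albumin (ALB) was at 2991, 2392 and 5635 CPM after FTO siRNA and 5315, 5307 and 3556 CPM after control siRNA. The list's sums were 29570.8, 24718.5 and 31675.3 CPM after FTO siRNA and 38543.7, 39915.7 and 30868.5 CPM after control siRNA. APOB was at 1405, 2381 and 4062 CPM after FTO siRNA and 8180, 7419 and 5071 CPM after control siRNA. Its groups did not overlap (log2 fold change -1.40, adjusted p = 0.0650), nor did those of HNF4A (-0.23), and neither passed. APOA2, KRT8 and KRT18 had positive log2 fold changes of 0.80, 0.13 and 0.29 and did not pass.

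After FTO siRNA, transcripts of 7 subunits rose and 1 fell (adjusted p under 0.05 over all genes). The risers were the fibronectin receptor subunit ITGA5, the collagen receptor subunit ITGA2, the laminin receptor subunit ITGA3, the leukocyte subunit ITGAM, the TGF-beta-activating subunit ITGB6, and the laminin chains LAMA4 and LAMB3. The gene that fell was ITGAL, the alpha subunit of the lymphocyte integrin LFA-1. The abundant subunits ITGB1, ITGAV, LAMB1, LAMC1 and LAMA5 did not pass the test.

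Of the 37 genes, 24 had enough counts to be tested, and 13 did not. The 7 that rose are 29.2% of those tested, where 7.53% of all 15025 tested genes rose, and the 1 that fell stands beside 3.83% of all tested genes. By family, 4 of 11 tested alpha subunits, 1 of 5 beta subunits and 2 of 8 laminin chains rose. Without control library 1, and likewise without control library 2, 2 rose and 0 fell, while without FTO siRNA library 3 the counts were 7 and 2. Over all tested genes, 236 rose and 94 fell without control library 1, and 287 and 106 without control library 2. Without FTO siRNA library 3, 2430 of all tested genes rose and 2152 fell. In either direction, the 8 called subunits stand beside 11.4% of all tested genes. The 3 FTO siRNA libraries were all above the 3 control libraries for 10 of the 24 and all below for 1, where the same held for 19.2% and 17.4% of all tested genes, or 36.5% together. The median log2 fold change was 0.29 over the 24 and 0.04 over all tested genes. Of the 24, ITGA3, ITGAM, LAMB3 and LAMB4 were under the count filter of 0.602 CPM in at least 1 control library and entered the test through the FTO siRNA libraries, so a difference was built into their entry, and the counts above are a description that was given no test of its own. RNA came from bulk cultures, in which more cells that express a gene and more RNA of it per cell cannot be told apart.

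**Figure D1:**
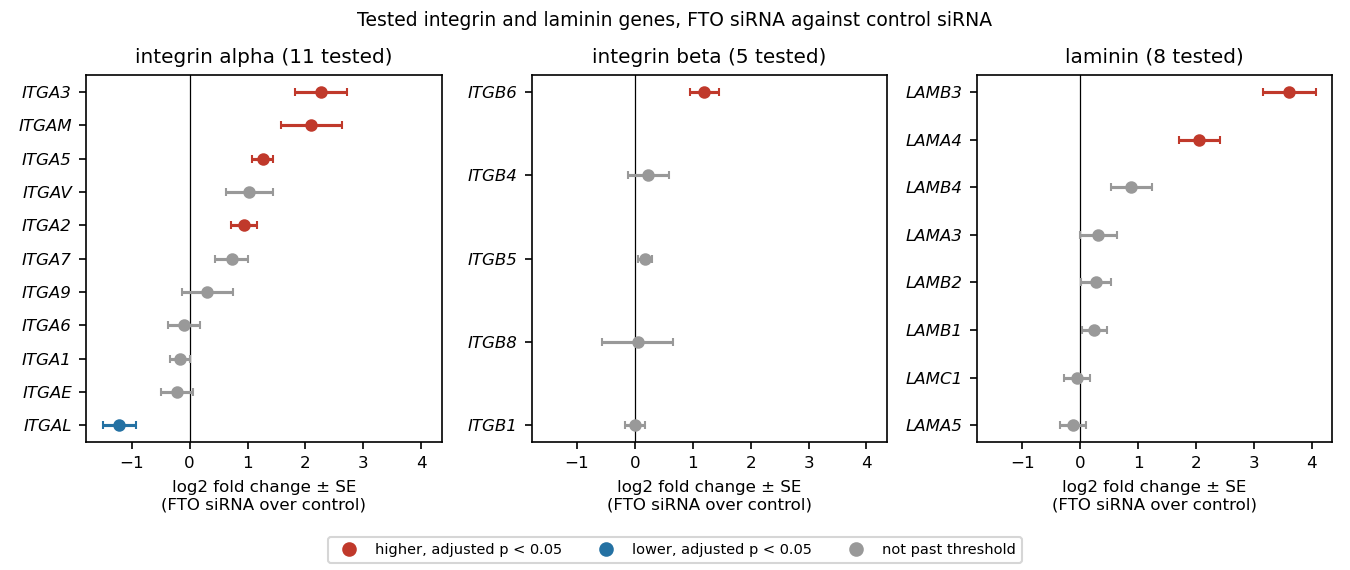
Log2 fold change of FTO siRNA over control siRNA for the 24 tested integrin and laminin genes, with the standard error as bars, red points for genes higher and blue points for genes lower at adjusted p under 0.05, and grey points for the others. The 7 red points run from 0.94 for ITGA2 to 3.61 for LAMB3, and the 1 blue point is ITGAL at -1.22.

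To compare subunits with each other, CPM were divided by the length of each gene's exons in kilobases. In the alpha family, ITGAV, the subunit of the vitronectin receptors, was the most abundant, at 116 ± 74.4 CPM per kb after FTO siRNA and 56.6 ± 8.63 after control siRNA. After FTO siRNA it was followed by ITGA5 at 35.6 ± 8.07, ITGA6 at 16.0 ± 7.10, ITGA2 at 15.3 ± 4.97 and ITGA1 at 5.93 ± 1.26 CPM per kb. After control siRNA the order was ITGA6 at 17.1 ± 2.49, ITGA5 at 14.9 ± 0.487, ITGA2 at 7.97 ± 0.859 and ITGA1 at 6.68 ± 0.493 CPM per kb (SD, n = 3 each). The libraries' ranges overlapped between ITGA6 and ITGA2 after FTO siRNA, and between ITGA6 and ITGA5 and between ITGA2 and ITGA1 after control siRNA, so those neighbours are not ordered beyond their spread. Dividing by the longest transcript instead exchanged both control pairs.

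ITGB1, the partner of most of these alpha subunits, held 85.1% of the beta family's summed CPM per kb after FTO siRNA and 86.8% after control siRNA, at 176 ± 19.5 CPM per kb after FTO siRNA and 176 ± 11.6 after control siRNA. ITGB5, a partner of ITGAV, came next at 29.1 ± 0.367 and 25.8 ± 1.19 CPM per kb, and ITGB6 was at 1.05 and 0.458 CPM per kb, in the same order of groups. Among laminins LAMB1 led with 93.6 ± 26.4 CPM per kb after FTO siRNA and 78.9 ± 7.05 after control siRNA, followed by LAMC1 at 40.9 ± 12.8 and 42.6 ± 0.81. LAMA5, at 25.7 ± 7.47 CPM per kb after FTO siRNA and 28.0 ± 3.33 after control siRNA, overlapped with LAMB2, at 29.1 ± 11.5 and 24.2 ± 2.92. The most abundant alpha, beta and gamma chains were thus LAMA5, LAMB1 and LAMC1, which are known to assemble with each other. LAMA3 and LAMB3, chains of a laminin that anchors skin epithelium, were at 0.876 and 0.501 CPM per kb after FTO siRNA and at 0.704 and 0.039 after control siRNA.

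**Figure D2:**
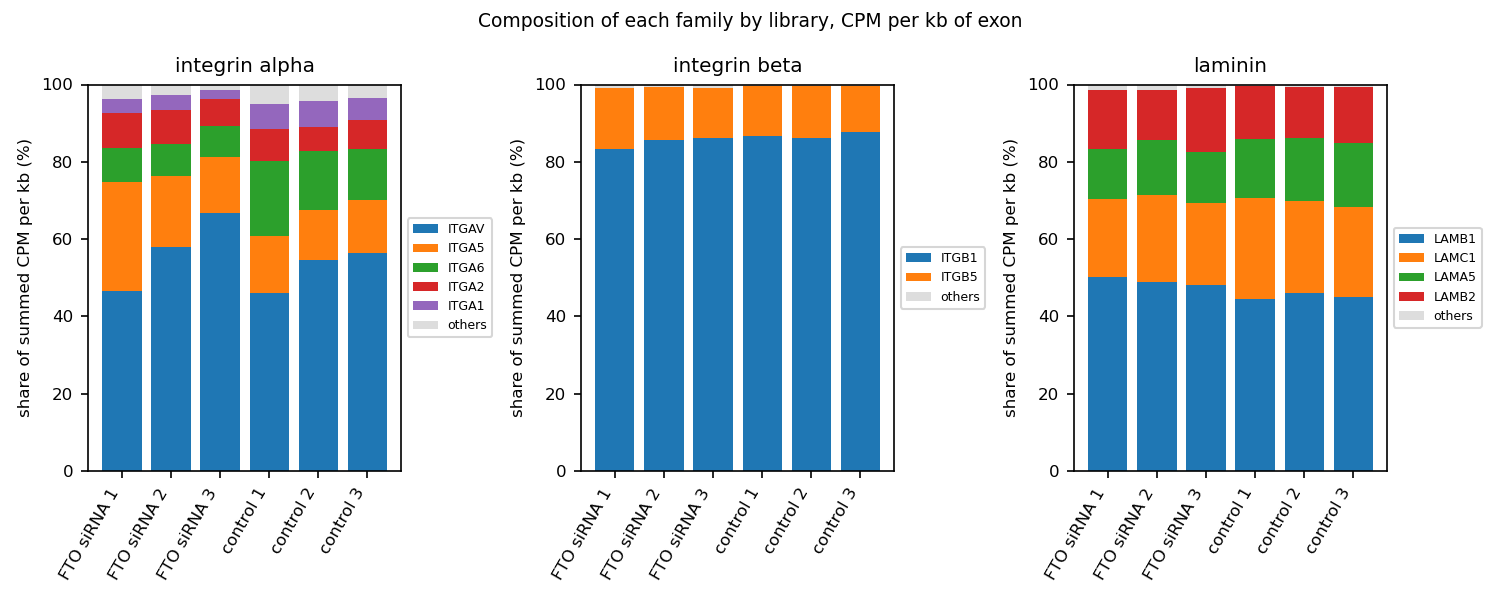
Share of each family's summed CPM per kb held by each subunit in every library, for subunits with a mean share of at least 2%, FTO siRNA left of control siRNA. ITGA6 held 8.80, 8.42 and 8.05% of the alpha family after FTO siRNA and 19.4, 15.2 and 13.3% after control siRNA.

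As shares of the alpha family's summed CPM per kb, ITGA6 and ITGA1 were lower in all 3 FTO siRNA libraries than in all 3 control libraries, at 8.42 ± 0.372% against 16.0 ± 3.12% and 3.34 ± 0.835% against 6.20 ± 0.484%. ITGA5 held 28.0, 18.2 and 14.6% after FTO siRNA and 14.7, 12.9 and 13.8% after control siRNA, which overlapped. Within the laminins, LAMB1 held 49.1 ± 1.11% after FTO siRNA and 45.2 ± 0.757% after control siRNA, without overlap. LAMC1 held 20.03, 22.5 and 21.3% after FTO siRNA and 26.2, 24.0 and 23.1% after control siRNA, and LAMA5 was likewise lower in every FTO siRNA library than in every control library. Shares within a family add to a fixed sum, so a higher share of 1 subunit lowers the others, and they were not tested; with 3 libraries against 3 an exact permutation test could not go below p = 0.1.

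Of the subunits that bind the RGD sequence of fibronectin and vitronectin, ITGA5 rose. ITGA5 (ENSG00000161638.9, chromosome 12), which pairs with ITGB1 as the main fibronectin receptor, was at 268, 209 and 331 CPM after FTO siRNA and 114, 109 and 116 CPM after control siRNA. The lowest FTO siRNA library lay above the highest control library, and the log2 fold change was 1.26 ± 0.18 (adjusted p = 0.00602). ITGAV was at 483, 723 and 1641 CPM after FTO siRNA and 384, 496 and 514 CPM after control siRNA. FTO siRNA library 3 alone was far above the controls, library 1 lay within their range, and the log2 fold change of 1.03 ± 0.40 did not pass the test (adjusted p = 0.139). Without library 3 it was 0.35 (adjusted p = 0.180). Of the other RGD-binding subunits, ITGA8 had 5 counts over the 3 FTO siRNA libraries and 1 over the 3 controls, and the platelet subunit ITGA2B had 11 and 3, a ratio of 3.45 with a 95% counting interval of 0.910 to 19.2.

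The start region of ITGA5 was read because promoters of several adhesion genes are known to carry AP-1, NF-kB or SRF elements. RefSeq windows from 250 bases before to 50 after a transcript start (GRCh38.p14) were held for 26 of the 37 reported genes, in 33 windows. The other genes had none in the table used here, among them the called subunits ITGA3 and ITGAL. The AP-1 letters TGANTCA, searched on both strands, were in windows of ITGA5, LAMA3 and LAMB3. In GENCODE 29 all 150 bases before the ITGA5 start lie in annotated exons on the same strand. The ITGA5 match is shown 5′ to 3′ on the gene's strand, in capitals, with positions counted from the transcript start as 0.
ITGA5, chr12:54419255-54419284, minus strand, match from -6 to 0: tcctccccgcgtTGAGTCAttcgcctctgg
AP-1 letters were in 9.09% of the subunits' windows and 7.72% of all 34943 windows of the table. The NF-kB consensus was in 27.3% of the subunits' windows and 11.3% of all, among them windows of ITGA5 and LAMB3, which rose, and of ITGB1 and LAMB1, which did not pass the test. The GC box GGGCGG was in 57.6% of the subunits' windows and 44.9% of all. Overlapping windows of LAMB3 hold the same NF-kB and GC box bases, and those of ITGA6 share a GC box. Each window was counted, so the subunits' shares of these motifs include repeats. Matches of different motifs may share bases, and the letters are a description of the windows only.

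**Figure D3:**
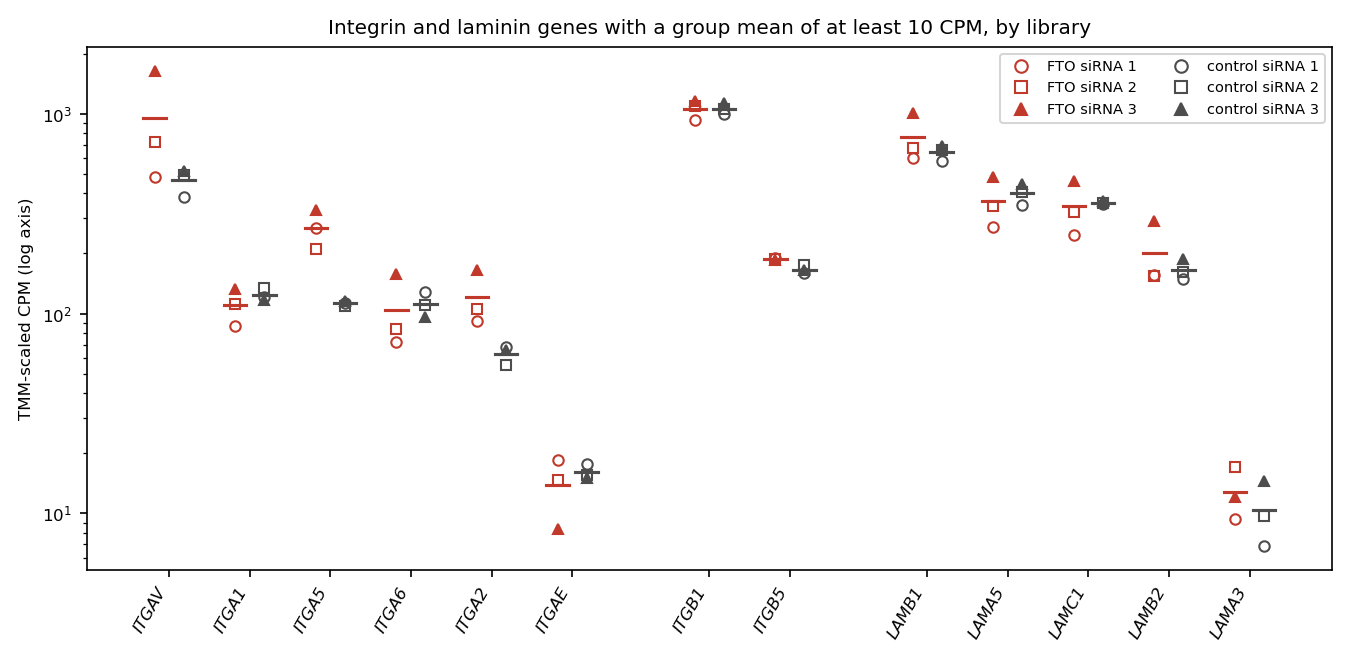
CPM in each library, on a log axis, of the subunits with at least 10 CPM in the mean of either group, FTO siRNA left of control siRNA, with group means as short lines. The FTO siRNA and control libraries of ITGA5, of ITGA2 and of ITGB5, which did not pass the test, do not overlap. Among the subunits whose groups overlap FTO siRNA library 3 is the highest point for ITGA6, ITGB1, LAMA5, LAMB1, LAMB2, LAMC1 and ITGAV, the last at 1641 CPM.

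Of the 4 collagen-binding subunits, ITGA2 rose and ITGA1 did not pass the test. ITGA2 (ENSG00000164171.9, chromosome 5) was at 91.9, 105 and 166 CPM after FTO siRNA and 68.3, 55.4 and 65.5 CPM after control siRNA, with no overlap and a log2 fold change of 0.94 ± 0.23 (adjusted p = 0.0338). ITGA1, on the same chromosome, was at 86.2, 111 and 133 CPM after FTO siRNA and 121, 134 and 116 CPM after control siRNA. Its ranges overlapped, and the 95% interval of its log2 fold change was -0.58 to 0.24 (adjusted p = 0.576). Without FTO siRNA library 3 the log2 fold change was -0.35 (adjusted p = 0.0791). In GENCODE 29, 5.63% of its exon bases are shared with other genes on the same strand, PELO among them. ITGA10 and ITGA11, the subunits of cartilage and of fibroblasts, had 24 and 11 counts over the 3 FTO siRNA libraries and 24 and 9 over the controls, and were not tested.

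Of the 3 laminin-binding alpha subunits ITGA3 rose. ITGA3 (ENSG00000005884.16, chromosome 17), which with ITGB1 binds LAMA3- and LAMA5-containing laminins, was at 3.04, 1.85 and 4.91 CPM after FTO siRNA and 0.570, 0.548 and 0.906 CPM after control siRNA. It rose by 2.27 ± 0.45 on the log2 scale (adjusted p = 0.0164), with all FTO siRNA libraries above all controls, but remained a low transcript. ITGA6, the more abundant laminin receptor subunit, was at 72.4, 83.4 and 158 CPM after FTO siRNA and 129, 110 and 96.4 CPM after control siRNA. FTO siRNA libraries 1 and 2 were below all controls and library 3 was above them, which gave a log2 fold change of -0.10 ± 0.28 with a 95% interval of -0.74 to 0.55 (adjusted p = 0.859). Without library 3 ITGA6 passed the test and fell, with a log2 fold change of -0.55 (adjusted p = 0.0196). ITGA7, known from muscle, averaged 2.10 CPM after FTO siRNA and 1.27 CPM after control siRNA and did not pass (adjusted p = 0.142), although its libraries did not overlap. ITGB4, the hemidesmosome partner of ITGA6, was between 1.55 and 3.58 CPM in all libraries, with a log2 fold change of 0.23 (adjusted p = 0.709).

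Among the beta subunits ITGB6 (ENSG00000115221.9, chromosome 2) rose. ITGB6 pairs with ITGAV into an epithelial receptor that activates latent TGF-beta, and was at 5.27, 4.45 and 5.11 CPM after FTO siRNA and 1.65, 2.44 and 2.35 CPM after control siRNA. The log2 fold change was 1.20 ± 0.25 (adjusted p = 0.0191), and library 3 did not stand apart. In GENCODE 29, 20.6% of its exon bases are also in another gene on the same strand, to which no counted identifier was matched. ITGB1 was at 927, 1099 and 1152 CPM after FTO siRNA and 992, 1055 and 1131 CPM after control siRNA. Its log2 fold change was 0.00 ± 0.18, with a 95% interval of -0.41 to 0.41 (adjusted p = 1.00). Of its 50-base words, 15.0% also occur in transcripts of other genes, so its level could be partly lost or shared in counting. ITGB5 was at 189, 188 and 185 CPM after FTO siRNA and 159, 174 and 165 CPM after control siRNA, a difference without overlap that did not pass the test (log2 fold change 0.17 ± 0.13, adjusted p = 0.413). ITGB8, another ITGAV partner, was at 0.992, 0.679 and 3.88 CPM after FTO siRNA and 2.22, 2.25 and 1.09 CPM after control siRNA, with library 3 again on the other side of the controls from libraries 1 and 2 (log2 fold change 0.05 ± 0.61, adjusted p = 0.970; -1.17, adjusted p = 0.0631, without library 3). The platelet and endothelial subunit ITGB3 had 21 and 11 counts and was not tested. In GENCODE 29, 51.6% of ITGB3 exon bases are also in another gene on the same strand.

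The ITGB6 window was the only one of the 33 with a CArG box, the element bound by SRF, in capitals below (minus strand, 5′ to 3′); 3.03% of the subunits' windows and 1.30% of all windows held one.
ITGB6, chr2:160200314-160200422, minus strand, match from -60 to -51: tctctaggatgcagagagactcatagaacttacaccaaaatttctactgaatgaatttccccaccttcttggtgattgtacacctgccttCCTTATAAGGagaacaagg

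Leukocyte integrins moved in both directions. ITGAL (ENSG00000005844.16, chromosome 16), which on lymphocytes pairs with ITGB2 and binds ICAM1, was at 3.53, 4.32 and 4.85 CPM after FTO siRNA and 12.3, 11.1 and 6.34 CPM after control siRNA. It fell, all FTO siRNA libraries lying below all controls, with a log2 fold change of -1.22 ± 0.29 (adjusted p = 0.0306). ITGAM (ENSG00000169896.15, chromosome 16), which on myeloid cells pairs with ITGB2, was at 1.55, 1.17 and 3.07 CPM after FTO siRNA and 0.317, 0.731 and 0.302 CPM after control siRNA, a rise of 2.10 ± 0.52 (adjusted p = 0.0372). Their common partner ITGB2 had 16 counts over the 3 FTO siRNA libraries and 1 over the 3 controls, a ratio of 15.0 with a 95% counting interval of 2.34 to 630. ITGAX, ITGAD and ITGB7 had 4, 1 and 3 counts after FTO siRNA and were at 0 in all controls, and ITGA4 had 15 and 2. ITGAE, the subunit of intraepithelial lymphocytes, was at 18.5, 14.7 and 8.38 CPM after FTO siRNA and 17.7, 15.5 and 15.0 CPM after control siRNA (adjusted p = 0.653). ITGA9, related to ITGA4, had a log2 fold change of 0.31 (adjusted p = 0.694).

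Markers of leukocytes were read beside these transcripts. Of 20 leukocyte markers 14 were tested and 9 rose, where 7.53% of all tested genes rose; 8 of the 9 were under the count filter in all controls and entered the test through the FTO siRNA libraries only, so that a rise was built into their entry. The summed level of the 20 was 216, 220 and 189 CPM after FTO siRNA and 166, 191 and 129 CPM after control siRNA. LYZ and LCP1 held most of that sum; without them, a choice made after the values were seen, it was 39.7, 28.5 and 28.9 CPM after FTO siRNA and 6.65, 5.48 and 6.76 CPM after control siRNA. PTPRC, the general leukocyte marker CD45, was at 1.24, 1.24 and 1.02 CPM after FTO siRNA and 0, 0.061 and 0.060 CPM after control siRNA, and TYROBP, MS4A1, SPI1 and CD48 were at 0 in all controls. Over the FTO siRNA libraries together, TYROBP had 86 counts, MS4A1 8, SPI1 2 and CD48 10. ITGAL was lower and ITGAM higher after FTO siRNA. Of 9 megakaryocyte and platelet markers 2 were tested, GP1BA and PF4, which did not pass (edgeR adjusted p = 0.621 and 0.0669), with sums for the list of 2.79, 2.16 and 2.96 CPM after FTO siRNA and 1.46, 2.68 and 1.75 CPM after control siRNA and with GP9 at 0 throughout. PPBP had 9, 6 and 11 counts and SELP 3, 5 and 2 counts in the FTO siRNA libraries, and both were at 0 in all controls. GP6 and NFE2, with 2 counts each over the FTO siRNA libraries together, were also at 0 in all controls. The part of other cells in the integrin values was not tested.

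**Figure D4:**
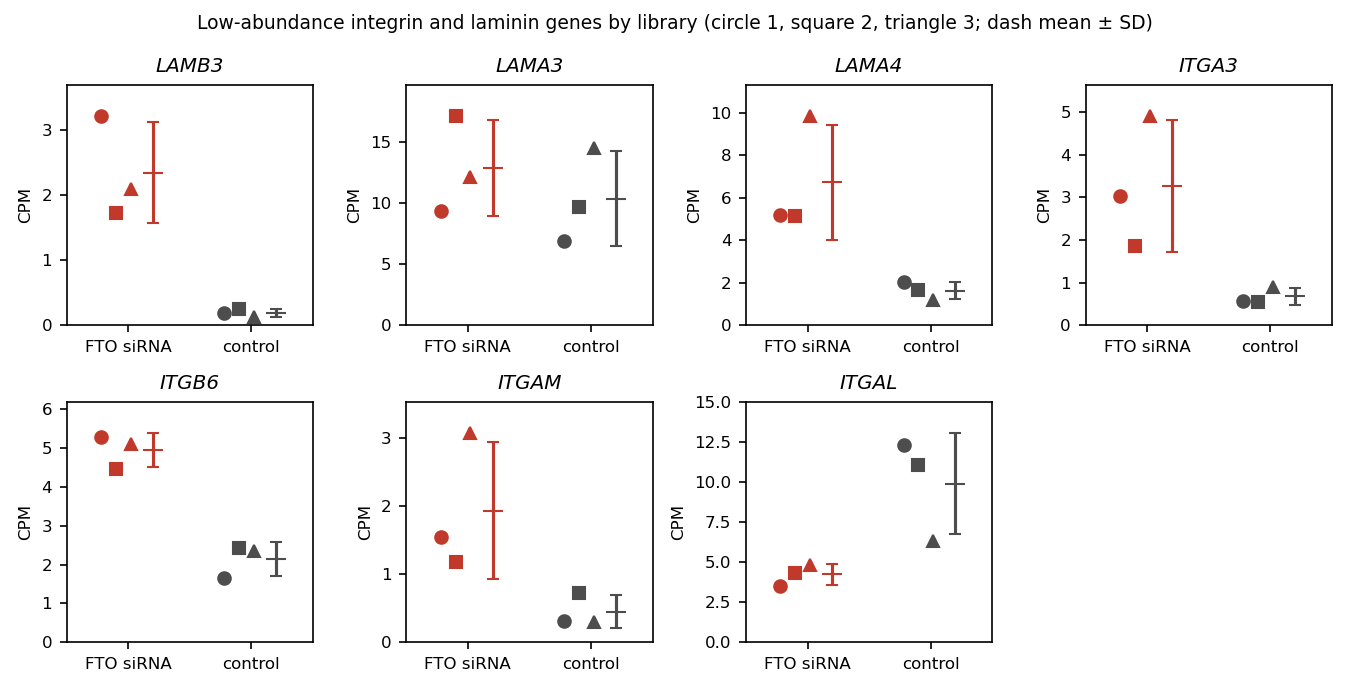
CPM in each library, on a linear axis from 0, of 7 subunits with low levels, FTO siRNA left of control siRNA, with the group mean as a dash and the SD as its bar. LAMB3, LAMA4, ITGA3, ITGB6 and ITGAM lie higher in all FTO siRNA libraries, ITGAL lies lower in all of them, and LAMA3 overlaps.

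Of the epithelial laminin chains, LAMB3 rose, whereas its alpha partner LAMA3 did not pass the test. LAMB3 (ENSG00000196878.11, chromosome 1) had 52, 28 and 41 counts in the FTO siRNA libraries and 3, 4 and 2 counts in the control libraries, or 3.22, 1.73 and 2.09 CPM against 0.190, 0.244 and 0.121 CPM. The controls lay at or near the floor of 3 counts per library, and the log2 fold change of 3.61 ± 0.46 was the highest of the tested subunits (adjusted p = 0.00368). LAMA3 was at 9.36, 17.1 and 12.1 CPM after FTO siRNA and 6.84, 9.69 and 14.5 CPM after control siRNA. Its ranges overlapped and its log2 fold change was 0.31 with a 95% interval of -0.41 to 1.03 (adjusted p = 0.564).

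Both LAMB3, which rose, and LAMA3, which did not pass the test, had AP-1 letters before a RefSeq transcript start. In GENCODE 29 all 150 bases before the LAMA3 start lie in annotated exons on the same strand. LAMA3 had a pair of matches and LAMB3 a single match in 1 of its 3 windows, in capitals below.
LAMB3, chr1:209651395-209651524, minus strand, match from -67 to -61: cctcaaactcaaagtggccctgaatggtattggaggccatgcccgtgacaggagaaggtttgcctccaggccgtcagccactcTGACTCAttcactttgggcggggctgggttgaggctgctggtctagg
LAMA3, chr18:23872883-23872912, plus strand, match from -125 to -119: tctggcacaggcTGACTCAtgtgtgaagtt
LAMA3, chr18:23872939-23872968, plus strand, match from -69 to -63: gccttcctcaccTGAGTCAggcaggcccgg

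LAMA4 (ENSG00000112769.17, chromosome 6), the alpha chain of vessel and mesenchymal basement membranes, was at 5.21, 5.13 and 9.86 CPM after FTO siRNA and 2.03, 1.65 and 1.21 CPM after control siRNA. It rose by 2.06 ± 0.35 (adjusted p = 0.0108), with all FTO siRNA libraries above all controls. Fibroblast markers rose for 3 of 7 tested out of 12, where 7.53% of all tested genes rose. Their sums were 614, 426 and 277 CPM after FTO siRNA and 117, 135 and 203 CPM after control siRNA. TAGLN held most of the sums of FTO siRNA libraries 1 and 2; without it, a choice made after the values were seen, they were 150, 142 and 187 CPM after FTO siRNA and 82.4, 79.7 and 112 CPM after control siRNA. COL1A1 was at 42.6, 38.8 and 45.3 CPM after FTO siRNA and 11.8, 9.87 and 23.1 CPM after control siRNA, and COL6A3, DCN, THY1, FAP and ACTA2 were at 0 in all controls. Over the FTO siRNA libraries together, COL6A3 had 16 counts, DCN 8, THY1 6, FAP 5 and ACTA2 25. COL3A1 and LUM, with log2 fold changes of -0.09 and 0.15, did not pass. Endothelial markers rose for 2 of 3 tested out of 10, beside the same 7.53% of all tested genes. Their sums were 102, 82.6 and 124 CPM after FTO siRNA and 72.3, 65.5 and 61.1 CPM after control siRNA, and KDR was at 0 throughout. EGFL7 held most of that sum, at 67.6, 49.5 and 79.9 CPM after FTO siRNA and 43.7, 37.3 and 33.2 CPM after control siRNA. Sums without EGFL7, left out after the values were seen, were 34.2, 33.1 and 44.5 CPM against 28.6, 28.2 and 27.9 CPM. ESAM also rose (edgeR adjusted p = 0.0111), at 19.0, 17.2 and 20.2 CPM against 3.48, 2.50 and 7.55 CPM. PECAM1, the third marker tested, had a log2 fold change of -0.47 and did not pass. VWF, TEK and ERG had 9, 4 and 2 counts over the FTO siRNA libraries and 0 in all controls. CDH5 had 3, 2 and 46 counts after FTO siRNA and 2, 1 and 1 after control siRNA. The part of either cell type in the LAMA4 values was not tested.

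The abundant laminin chains did not pass the test in either direction. LAMB1 was at 602, 677 and 1007 CPM after FTO siRNA and 578, 658 and 690 CPM after control siRNA (log2 fold change 0.25, 95% interval -0.26 to 0.75). LAMC1 was at 248, 322 and 460 CPM after FTO siRNA and 352, 356 and 365 CPM after control siRNA (-0.06, interval -0.57 to 0.45). For both, FTO siRNA library 3 was the highest of the 6 libraries, and for LAMC1 libraries 1 and 2 were the lowest. LAMA5, the main alpha chain here, was at 273, 346 and 483 CPM after FTO siRNA and 349, 406 and 444 CPM after control siRNA (-0.12, interval -0.63 to 0.39). LAMB2, the beta chain of mature basement membranes, was at 155, 154 and 291 CPM after FTO siRNA and 149, 161 and 188 CPM after control siRNA (0.27, interval -0.32 to 0.86). Adjusted p for these 4 chains lay between 0.511 and 0.893. Without FTO siRNA library 3 the log2 fold changes were -0.03 for LAMB1, -0.35 for LAMC1 (adjusted p = 0.0714), -0.39 for LAMA5 (adjusted p = 0.0694) and -0.13 for LAMB2. LAMB4 was between 0.483 and 1.30 CPM in all libraries (adjusted p = 0.147), and LAMA2, LAMA1 and LAMC3 had 39, 6 and 2 counts after FTO siRNA and 16, 0 and 0 after control siRNA.

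FTO siRNA library 3 was the highest of the 6 libraries for 14 of the 24 tested subunits, or 58.3%, and for 29.9% of all tested genes. Its median distance from the mean of FTO siRNA libraries 1 and 2 was 0.46 on the log2 scale for the subunits and 0.02 for all tested genes, of which the third with the longest transcripts stood at 0.20 and the third with the shortest at -0.15. The longest transcript had a median of 5720 bases for the subunits and 3351 for all tested genes. The part of transcript length in these values was not tested for single genes. With a trend over length and GC content removed, the 8 called subunits were called again, as were 1314 of all 1707 called genes. Leaving out library 3 kept all 8 calls and added ITGA6. Leaving out control library 1 or control library 2 kept only ITGA5 and LAMB3 of the 8, and the other 6 kept their direction. Of all 1707 called genes, 1705 were called again without FTO siRNA library 3. Without control library 1 the number was 328, and without control library 2 it was 386.

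**Figure D5:**
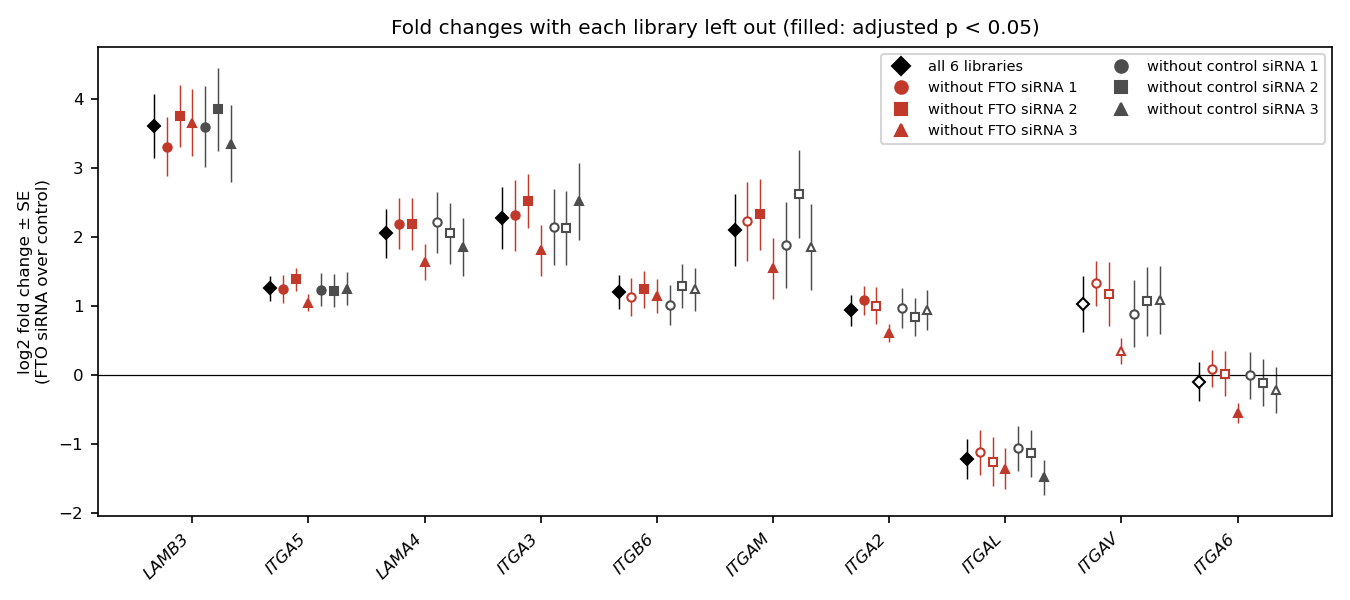
Log2 fold change of FTO siRNA over control siRNA with all libraries and with each library left out in turn, filled where adjusted p was under 0.05, for the 8 called subunits, ITGAV and ITGA6, with SE as bars. LAMB3 and ITGA5 are filled in every fit, and ITGA6 only without FTO siRNA library 3, at -0.55.

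The genes that work with these subunits were counted from lists. Of 34 integrin adaptors and kinases 30 were tested, 2 rose and 2 fell, 6.67% each, against 7.53% and 3.83% of all tested genes, and 26 did not pass; the median log2 fold change was 0.24. With a library left out between 0 and 9 rose, 0 of them without FTO siRNA library 1 or 2 or control library 1 or 2 and 9 without FTO siRNA library 3, and 1 or 2 fell. Over all tested genes, between 236 and 2430 rose and between 94 and 2152 fell, the most without FTO siRNA library 3. TLN2, a talin that links beta subunits to actin, was at 8.37, 14.8 and 11.8 CPM after FTO siRNA and 27.9, 35.8 and 34.0 CPM after control siRNA, and fell by 1.48 ± 0.23 (adjusted p = 0.00726). TGFB1I1, a relative of paxillin, was at 34.8, 23.0 and 12.4 CPM after FTO siRNA and 1.84, 4.26 and 7.97 CPM after control siRNA, a rise of 2.31 ± 0.52 (adjusted p = 0.0261). FBLIM1, a filamin-binding adaptor, rose by 0.72 and KANK1, a talin-binding scaffold, fell by 0.58 on the log2 scale.

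Of 29 integrin ligands other than laminins 23 were tested, 5 (21.7%) rose and 1 (4.35%) fell, with a median of 0.97; EDIL3, 1 of those that rose, was under the count filter in all controls. ICAM1, the ligand of the ITGAL and ITGAM receptors, was at 427, 422 and 772 CPM after FTO siRNA and 191, 196 and 196 CPM after control siRNA, a rise of 1.48 ± 0.25 (adjusted p = 0.00982). FBLN5, an elastic fibre protein with an RGD sequence, fell by 1.09 ± 0.17 (adjusted p = 0.00836), and TGFB1, whose latent form is bound by ITGAV receptors, and TGFB2 rose by 0.97 and 1.76 on the log2 scale. With a library left out between 0 (without control library 1 or 2) and 9 (without FTO siRNA library 3) ligands rose, and between 1 and 5 (without FTO siRNA library 3) fell. Of all 15290 genes tested without FTO siRNA library 3, 2430 rose and 2152 fell. Of 22 basement membrane partners of laminin 15 were tested and 3 (20.0%) rose, with a median of -0.29: SPARC, a collagen-binding matricellular protein, by 1.75, TINAGL1, a basement membrane protein, by 2.32, and NTN4, a laminin-related netrin, by 1.35. The list's sums were 1351, 1839 and 2464 CPM after FTO siRNA and 2455, 2458 and 2516 CPM after control siRNA. HSPG2 was at 185, 407 and 430 CPM against 551, 616 and 692 CPM and did not pass. Of the others tested that did not pass, COL4A5 and FREM1 were also lower without overlap, and NTN1 was higher without overlap. Without FTO siRNA library 3, 5 of that list fell, beside 2152 of all 15290 tested genes. Of 20 other laminin receptors and partners of hemidesmosome integrin 20 were tested, 5 (25.0%) rose and 2 (10.0%) fell, with a median of 0.07. Without FTO siRNA library 1 and without each control library 0 rose, and without each control library 0 fell, while 6 rose and 3 fell without FTO siRNA library 3. With a length and GC trend removed 2 rose. COL17A1, a hemidesmosome collagen that binds LAMA3-containing laminin, was at 1.22 ± 0.355 CPM after FTO siRNA and 0.141 ± 0.126 CPM after control siRNA, where it had 0, 3 and 4 counts; it rose by 3.01 ± 0.62 (adjusted p = 0.0181), but entered the test through the FTO siRNA libraries only, so a difference was built into its entry. CD151, a tetraspanin of laminin-binding integrins, rose by 0.75, and of the syndecans, which bind laminin through heparan sulfate, SDC4 rose, with a log2 fold change of 0.94, and SDC1 fell, with one of -0.92. Adjusted p in edgeR's quasi-likelihood test was at most 0.0462 for each gene said to have risen or fallen.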

How the data were processed

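Total RNA of 6 HepG2 libraries had been extracted with Trizol and sequenced by Illumina methods, per the labels' protocols. The authors deposited raw counts per Ensembl gene, 1 file per library. Per the submitters' processing notes, TopHat2 2.0.11, TopHat, HTSeq and the builds hg19 and GRCh37 were used, in roles the notes leave out. Strand use, read length and the handling of multiply matching reads are not stated, so overlapping, antisense and near-identical genes are uncertain. Identifiers were matched to GENCODE 29 (56753 of 60483; 37168 with the same version, among them 3 of the 38 subunits; unmatched ones held up to 0.0522% of the counts of any library). Its symbols, chromosomes, exon lengths and shared 50-base words were used. Its exon coordinates served for the exon overlap between genes and to trim the printed promoter stretches.

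The deposited counts were tested with edgeR 4.0.16 in R 4.3.3 (filterByExpr by group, TMM factors, glmQLFit with legacy=FALSE, glmQLFTest, two-sided), FTO siRNA over control siRNA, with Benjamini-Hochberg adjustment over all 15025 genes, a threshold of 0.05 and no fold minimum. CPM use the TMM factors. The common dispersion amounted to a biological coefficient of variation of 0.221. Data were also simulated with 15025 genes, of which 200 were changed. There 2.99% of genes changed by 1.5-fold, 38.8% of those by 2-fold and 87.9% of those by 4-fold were called, and 8 of 94 calls were false. In the real data 1707 genes were called. The adjustment depends on the share of changed genes, so the simulated rates need not hold for the real data. All pairs of replicates differed by more than sampling noise (chi-square over degrees of freedom at least 8.45). Counting intervals (95%, exact binomial) and floors cover counting error only. RefSeq promoter windows came from GRCh38.p14. Named were all subunits past the threshold or with 10 CPM in either group with values per library, the others by count and range, and up to 4 called genes per companion list. Of the 38 subunits 1 is not reported here and is left out of all counts and sums over subunits. The members and lists were chosen with earlier results of these data known. Alternatives were other scalings (DESeq2 1.42.0 size factors, upper quartile, none), filters, DESeq2, limma-voom 3.58.1, the older edgeR estimate, a replicate block, a length and GC trend, and leaving out each library.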

Additional observations from a re-analysis of the deposited data

How the results depend on the processing

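Against 7 subunits that rose and 1 that fell, leaving out each library in turn gave 2 to 7 that rose (2 without control siRNA 1 or 2, 4 without control siRNA 3) and 0 to 2 that fell. Over all genes, against 1132 that rose and 575 that fell, leaving out a library gave 236 to 2430 and 94 to 2152, with the highest counts without FTO siRNA 3. DESeq2 called 1027 genes lower, and the cause was not tested. ITGA5 and LAMB3 were called in all 17 alternatives, LAMA4 and ITGA3 in 15, ITGA2 in 12, and ITGB6, ITGAM and ITGAL in 11, and none of the 8 changed sign in any of them. ITGA2 was lost without composition factors (adjusted p = 0.0512). Whether replicate numbers pair the libraries is not stated. Deviations of same-numbered libraries from their group means correlated at -0.14, -0.06 and -0.25, which with 3 libraries per group cannot decide it. With a replicate block 736 genes rose and 305 fell, and 5 of the 8 subunits were called again, none of them lower (0, ITGAL lost), with 0 adaptors and kinases and 1 other laminin receptor or hemidesmosome partner higher; with block and a length and GC trend removed the counts were 657, 297, 5 of the 8 and 0 lower, with ITGAV added (adjusted p = 0.0434). Of the 1707 genes called in the main fit, 1007 were called again with the block and 870 with block and trend. The other scalings, filters and tools called the same 8. The block is not read as a sign of weaker effects. Depth limits the 13 subunits that were not tested and LAMB3, at 2 to 4 counts in each control library.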
